A study of Mus musculus with 3 samples.

Results

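Of the 19880 peaks on assembled chromosomes in a list of sites bound by the zinc finger factor Sp9 in the neonatal mouse olfactory bulb, 1893 carried the name of a transcript known by a clone or model number instead of a gene name. They were chosen by name alone: 1231 had a name ending in Rik and 662 a name made of Gm and a number. The 1893 peaks bore 1160 different names, and the other 17987 peaks served for comparison. Any name that is not Rik or Gm is called ordinary here, and this includes numbered names such as LOC100861615 and C87414. Chromatin came from bulbs of CD1 mice at postnatal days 0 to 2, with no allele or treatment given in the labels. Sp9 was immunoprecipitated with a homemade antibody in 2 libraries, and 1 input library had no antibody. The bulb holds interneurons, projection neurons, glia and vascular cells, and strong binding in a few cells cannot be told apart from weak binding in many. All 9 interneuron markers and all 4 mitral and tufted cell markers named at least 1 peak in the list. Of 4 glial and 4 endothelial markers 2 each named a peak, and 0 of 4 microglial markers did. As background, 58.6% of all coding genes with ordinary names in RefSeq had a peak. Lists this short do not show which cell types were bound.

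Each peak has an interval on mouse build mm9, 1 score and 1 gene name. The authors gave 1 score for the 2 immunoprecipitations, so no value has a replicate error and no test between groups of peaks was made. Intervals in brackets are exact 95% Clopper-Pearson intervals of a share, or order-statistic intervals of a median. They treat peaks as independent draws, which neighbouring peaks are not, and do not cover differences between libraries. The number of reads in each library is unknown.

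Rik names were given to full-length mouse cDNA clones of the RIKEN collection, and Gm names to gene models predicted from the genome sequence. Many stand for long non-coding RNAs (lncRNAs), others for coding genes whose function was unknown when they were named. Several lncRNAs start beside, and run away from, a gene for a developmental transcription factor, and some are hosts from which a microRNA is cut. Sp9 belongs to the Sp family, whose zinc fingers bind GC-rich sequences known as GC boxes, and it acts in the development of olfactory bulb interneurons.

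The promoters of 6 non-coding members are shown because their names carried high scores or lay beside nuclear receptor genes of interneurons. The sequences are RefSeq windows of build GRCm38.p6, from 250 bases before to 50 bases after the first listed start. The GC box, GGGCGG or its complement CCGCCC, is in capitals. The peaks are on mm9, so whether a peak covers the window shown is unknown. The first 4 belong to high-scoring lncRNA names with an entry in the promoter table. The windows are chrX:169978868-169979167 on the minus strand, chr7:82755595-82755894 on the minus strand, chr17:69277157-69277456 on the minus strand and chr12:20815730-20816029 on the minus strand.
G530011O06Rik: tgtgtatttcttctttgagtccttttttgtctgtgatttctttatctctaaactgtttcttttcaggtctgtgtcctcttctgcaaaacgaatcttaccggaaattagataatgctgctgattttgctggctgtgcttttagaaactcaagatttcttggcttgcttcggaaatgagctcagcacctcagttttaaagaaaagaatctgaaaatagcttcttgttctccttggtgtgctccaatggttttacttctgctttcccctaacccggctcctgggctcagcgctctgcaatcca
4933406J10Rik: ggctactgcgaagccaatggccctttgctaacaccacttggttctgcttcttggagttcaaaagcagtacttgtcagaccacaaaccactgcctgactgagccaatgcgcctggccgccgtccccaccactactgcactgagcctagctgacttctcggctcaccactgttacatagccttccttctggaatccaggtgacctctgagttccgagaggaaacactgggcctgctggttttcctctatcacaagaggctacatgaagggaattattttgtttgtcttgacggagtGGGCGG
2410021H03Rik: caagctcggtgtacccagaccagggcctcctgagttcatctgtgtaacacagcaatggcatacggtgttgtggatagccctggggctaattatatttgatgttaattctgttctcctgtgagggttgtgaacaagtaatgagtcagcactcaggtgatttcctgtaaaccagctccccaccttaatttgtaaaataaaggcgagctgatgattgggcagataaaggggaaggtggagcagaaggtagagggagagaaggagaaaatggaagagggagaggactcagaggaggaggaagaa
1700030C10Rik: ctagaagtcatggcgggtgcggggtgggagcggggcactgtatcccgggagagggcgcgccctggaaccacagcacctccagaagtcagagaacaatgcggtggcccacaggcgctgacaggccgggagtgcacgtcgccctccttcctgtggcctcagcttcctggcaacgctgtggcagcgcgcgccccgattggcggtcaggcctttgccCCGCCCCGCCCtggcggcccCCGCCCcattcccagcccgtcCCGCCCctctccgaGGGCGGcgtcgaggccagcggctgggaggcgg
The window of 1700030C10Rik held 5 GC boxes, a pair of them overlapping by 1 base, and 29 CpG dinucleotides. That of 4933406J10Rik held 1 box and 8 CpG, and those of G530011O06Rik and 2410021H03Rik held 0 boxes with 5 and 3 CpG.

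The other 2 windows, chosen after the values had been seen, belong to A830082K12Rik (chr13:78197767-78198066 on the plus strand) and Gm29683 (chr7:70337773-70338072 on the minus strand). The nearest ordinary gene names beside their peaks were Nr2f1 and Nr2f2, nuclear receptors active in interneurons.
A830082K12Rik: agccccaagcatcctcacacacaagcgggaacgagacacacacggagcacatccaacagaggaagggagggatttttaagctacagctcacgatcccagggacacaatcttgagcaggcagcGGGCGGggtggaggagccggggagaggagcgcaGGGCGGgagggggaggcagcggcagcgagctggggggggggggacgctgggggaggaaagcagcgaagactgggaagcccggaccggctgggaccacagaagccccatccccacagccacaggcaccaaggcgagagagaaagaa
Gm29683: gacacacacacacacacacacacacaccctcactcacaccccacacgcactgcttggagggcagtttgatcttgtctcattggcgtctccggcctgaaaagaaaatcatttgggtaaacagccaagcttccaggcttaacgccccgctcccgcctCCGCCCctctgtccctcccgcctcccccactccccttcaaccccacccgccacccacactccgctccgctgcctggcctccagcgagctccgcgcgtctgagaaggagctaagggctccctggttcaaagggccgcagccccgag
The first window held 2 GC boxes and the second 1, with 16 and 17 CpG.

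Peaks with Rik and Gm names scored lower than the rest of the list. Their median score was 184 (176 to 193), with quartiles of 120 and 321, against 213 (210 to 217) and quartiles of 128 and 357 for all other peaks. Of the 1893 peaks, 835 (44.1%, 41.9 to 46.4%) reached the median of the whole list, which 50.1% of all placed peaks did. Gm names were lower than Rik names, with medians of 172 (161 to 182) and 193 (182 to 203). Widths were also smaller, with a median of 939 bp against 991 bp. Scores over 1000 were held by 28 of the members (1.48%) and 193 of the other peaks (1.07%). Without peaks named for ribosomal RNA genes, whose scores are uncertain because the genes are repeated, 21 of 1883 members (1.12%) and 179 of 17968 other peaks (0.996%) remained.

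**Figure D1:**
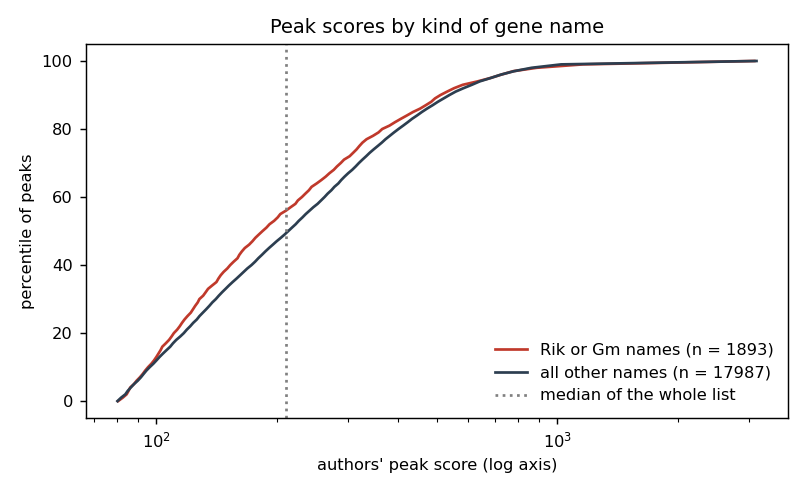
Percentiles of the authors' peak score (horizontal log axis) for the 1893 peaks with Rik or Gm names and the 17987 other peaks; the dotted line is the median of the whole list. The curve of Rik and Gm names lies to the left through the middle of the range, with a median of 184 against 213.

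By gene class in RefSeq, 1023 of the peaks (54.0%) named lncRNA genes, 730 (38.6%) protein-coding genes and 115 (6.08%) transcribed pseudogenes. Ribosomal RNA genes named 10 peaks and microRNA genes 2, so that 54.7% named non-coding RNA genes. The medians of the lncRNA and coding members were 177 (169 to 190) and 192 (180 to 204). Of the peaks named for coding genes with ordinary names, the median was 216 (213 to 219), and of the 203 peaks named for lncRNAs with ordinary names it was 173 (151 to 197). Members named for lncRNAs thus had a median score close to that of other lncRNA peaks, and members named for coding genes one below that of other coding peaks. Among lncRNA genes of the table, 432 of 1788 with a Rik name (24.2%, 22.2 to 26.2%) and 153 of 10127 with a Gm name (1.51%, 1.28 to 1.77%) had a peak. Which of these genes the authors' annotation held is unknown, and their share without a peak cannot be told apart from their absence from that annotation.

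Rik and Gm peaks stood farther from peaks with ordinary gene names than other peaks did. The median gap from the edge of a member to the nearest peak with an ordinary name was 152 kb (138 to 166 kb). For the other peaks, the median gap to the nearest ordinary name of another gene was 57.9 kb (56.4 to 59.2 kb). When any other name counted as a neighbour, the medians were 121 kb (111 to 136 kb) and 54.3 kb (53.0 to 55.8 kb). Within 10 kb of an ordinary name lay 136 members (7.18%, 6.06 to 8.44%), against 10.9% of all placed peaks and 11.3% of the other peaks. Within 1 kb the shares were 1.06% of members and 0.862% of other peaks, and within 100 kb 41.4% and 65.0%. The gap was 176 kb for members named for lncRNAs and 116 kb for those named for coding genes. Other peaks named for these classes had gaps of 52.9 and 58.0 kb, so members had the wider gap within each class. Names with only 1 peak were closer, with 75.4 kb for the 785 such members and 41.6 kb for the 8789 such names among other peaks.

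**Figure D2:**
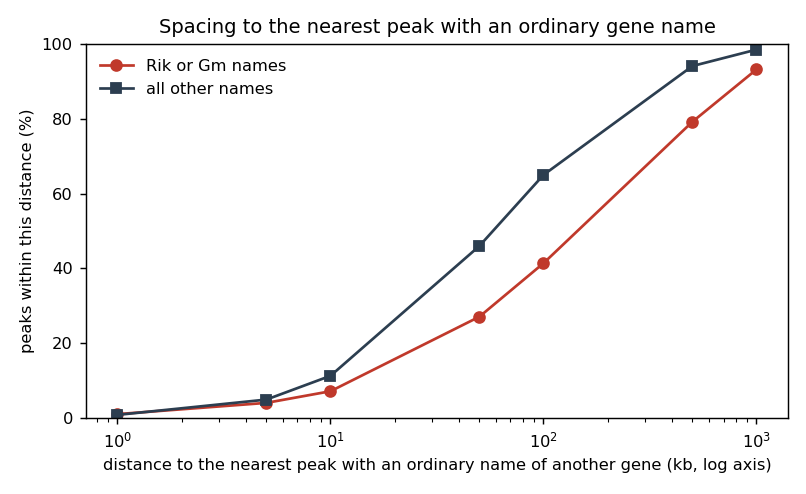
Share of peaks (vertical axis, %) whose nearest peak with an ordinary name of another gene lies within the distance on the horizontal log axis (kb), for Rik and Gm names and for all other names. The curves lie close together at 1 kb and part beyond it, with 41.4% against 65.0% within 100 kb.

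The 136 members within 10 kb of an ordinary name had scores like those of their neighbours. Their median was 222 (182 to 244), against 193 (183 to 199) for the 2030 other peaks within 10 kb, so that at this distance members did not have the lower median. From 10 to 100 kb the medians were 180 and 219, from 100 to 500 kb 190 and 218, and beyond that 174 and 177. The median of the peaks that neighboured the 136 members was 225, and the member had the higher score in 68 of 136 cases. The neighbours belonged to 117 genes, and 129 of the 136 neighbouring peaks were named for coding genes. The closest was 2700046G09Rik, an lncRNA with a peak of 290.86 on chromosome 19 from 32463458 to 32464200, which lay 13 bp from a peak of 436.21 named Sgms1, a sphingomyelin synthase. A230077H06Rik (110.53) lay 34 bp from a peak of Vstm2b (468.60), and 2900005J15Rik (306.21) lay 100 bp from one of Prkag2, a subunit of the energy sensor AMPK (156.39). Gm10125 (430.21) lay 149 bp from a peak of Zeb1, a repressor of epithelial genes (165.17), and Gm5468 (114.40) 157 bp from one of Basp1, a growth cone protein (197.12). Among these 5 neighbouring pairs the member scored higher in 2.

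Members were also often neighbours of each other. For 385 of 1893 (20.3%) the nearest peak with another name itself had a Rik or Gm name, against 1551 of 17987 other peaks (8.62%). Such names made up 9.52% of all placed peaks.

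Transcription factor genes of interneurons were the nearest ordinary name of 23 members (1.22%, 0.772 to 1.82%), against 62 of the other peaks (0.345%). A peak named for a factor cannot have that factor as its neighbour. As a further measure, 114 peaks, or 0.634% of those with ordinary names, were named for factors of this list. The 23 members bore 14 names and stood beside 11 factors, at a median gap of 152 kb, and 3 of them lay within 10 kb. Broader families of developmental factors, a list that includes most of the interneuron factors, were nearest to 100 members (5.28%, 4.32 to 6.39%) with 65 names and 57 factors, against 419 other peaks (2.33%). Of the ordinary-named peaks, 3.34% were named for that list. Within 10 kb of such a factor lay 13 members (0.687%) and 80 other peaks (0.445%).

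Gm5607, listed in RefSeq as the overlapping transcript Sox1ot, had peaks of 592.75 and 99.28 on chromosome 8. They lay 4.50 and 0.598 kb from a peak of 136.42 named Sox1, a factor of neural progenitors and forebrain interneurons. Sox1 itself named 6 peaks, from 91.25 to 646.03. The Gm5607 peak of 592.75 scored above 92.4% of all placed peaks, and its neighbour of 99.28 above 11.7%.

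A830082K12Rik, whose promoter with 2 GC boxes is shown above, had 4 peaks on chromosome 13 between 78277446 and 78335000. Their scores, in order towards Nr2f1, were 474.47, 473.66, 150.39 and 348.24, at 58.5, 33.6, 18.2 and 2.29 kb from a peak of 374.63 named Nr2f1. Nr2f1, also known as COUP-TF1, patterns the forebrain and its interneurons, and named 3 peaks. The highest peaks of this lncRNA thus scored above the highest peak named for the receptor gene. Gm29683 stood in the same way beside Nr2f2, the gene of COUP-TF2. Its peaks of 293.57, 127.46 and 110.03 lay 165, 27.3 and 12.9 kb from a peak of 455.43 named Nr2f2. In contrast to A830082K12Rik, all 3 peaks of Gm29683 scored below that neighbour.

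A330102I10Rik had the highest score of the 23 members, 1009.17, and another peak of 260.05, at 117 and 301 kb from the peak of 640.43 named Sox4, a factor of immature neurons. Beside Klf7, a factor of axon growth, lay Gm13749 (516.07) and 4933402D24Rik (544.22 and 93.40), 234 to 317 kb away. D230030E09Rik (215.93) lay 152 kb from a peak of 280.17 named Sp8, the closest relative of Sp9. Others of this set stood beside Meis1, Ebf1, Etv1, Pbx3 and another Nr2f2 peak, with scores of 90.22 to 189.89.

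**Figure D3:**
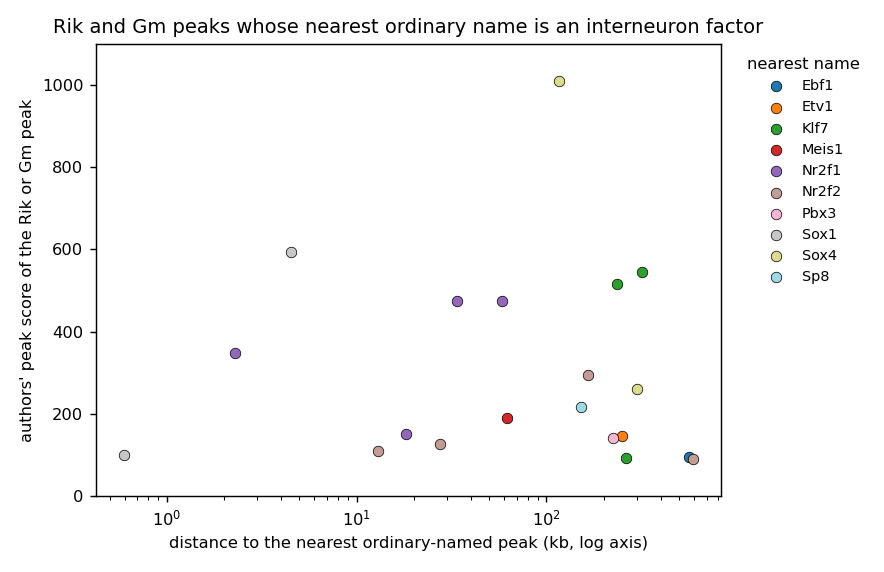
Scores (vertical axis) of 20 of the 23 Rik and Gm peaks whose nearest ordinary name is an interneuron transcription factor, against the distance to that peak (horizontal log axis, kb); colours give the factor. The A330102I10Rik peak beside Sox4 (1009.17) is the highest, and 3 peaks, beside Sox1 and Nr2f1, lie within 10 kb.

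Further developmental factors had a Rik or Gm peak within 10 kb. 5730488B01Rik (579.22) lay 5.81 kb from a peak of 110.19 named Pax5, a factor of B cells and the midbrain. 6430503K07Rik (425) lay 7.11 kb from a peak of 189.02 named Nkx2-2, a factor of the ventral neural tube. In both pairs the lncRNA name held the higher score. The same held for 1010001N08Rik, listed in RefSeq as Gata6os, with peaks of 250.17 and 396.53 at 3.11 and 4.86 kb from a peak of 95.45 named Gata6, a factor of heart and gut. It did not hold for 2610027K06Rik, whose peaks of 141.98 and 171.67 lay beside a peak of 348.32 named Tbx2. Nor did it hold for 0610040F04Rik (124.07, beside Bhlhe40 with 198.47), Gm15816 (248.45, beside Nkx6-3 with 285.78) and Gm38426 (218.98, beside Klf1 with 464.48). Over all 13 members within 10 kb of a factor on the developmental list, the member scored higher than the factor's peak in 6 cases and lower in 7. The list is not complete: it leaves out Evx1 and Dlx4, whose pairs are given below.

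Gene order in RefSeq gives the neighbours of a gene without regard to the peaks. Of 585 lncRNA genes that still have a Rik or Gm symbol and had a peak, 80 (13.7%, 11.0 to 16.7%) had a developmental factor gene as the next coding gene on at least 1 side. Of 11304 such genes without a peak, 1024 (9.06%, 8.54 to 9.60%) did. Most genes without a peak, 9949, had Gm symbols. A gene without a peak may have been absent from the authors' annotation, so it cannot be called unbound. With Rik symbols alone the shares were 13.0% (9.94 to 16.5%) and 8.93% (7.46 to 10.6%), with intervals that overlap. The flanking coding genes, counted again for each lncRNA they stood beside, had a peak as often beside lncRNAs with a peak (76.1%) as beside those without (76.3%). With each gene counted once, 58.6% of all coding genes with ordinary names had a peak, which is not a like measure. Among the highest-scoring members beside a factor in this order were 4933400F21Rik (1102.42, beside Gbx2), A330102I10Rik (Sox4), 4930474N09Rik (788.51, beside Foxn3) and Gm10125 (736.30 for its other peak, beside Zeb1). These 4 were picked after their values had been seen.

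Genes of migration and guidance were the nearest ordinary name of 22 members (1.16%, 0.730 to 1.75%) and 107 other peaks (0.595%), and 1.01% of ordinary-named peaks were named for them. Only 2 of the members lay within 10 kb. These were 1700125G02Rik (398.23), 8.03 kb from a peak of the ephrin receptor gene Epha10 (117.35), and 1600002H07Rik (215.33), 7.77 kb from a peak of the netrin gene Ntn3 (148.26). A730046J19Rik (278.64) lay 84.4 kb from a peak of 134.69 named Dcx, the microtubule protein of migrating neuroblasts. Progenitor and cell cycle genes were nearest to 8 members (0.423%, against 0.189% of other peaks), and 0.267% of ordinary-named peaks were named for them. Among the 8 members, 1190002F15Rik, listed in RefSeq as Lockd, had peaks of 317.44 and 196.98. They lay 5.71 and 7.13 kb from the peak of 423.77 named Cdkn1b, a cell cycle inhibitor.

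The remaining lists were each nearest to at most 56 members. No member (0 of 1893, exact upper bound 0.195%) had a gene of the GABA and dopamine phenotype or of microglia and vessels as its nearest ordinary name, against 0.156% and 0.0278% of other peaks. Ribosomal protein genes were nearest to 10 members (0.528%, against 1.09%), respiration genes to 6 (0.317%, against 0.673%), glial genes to 1 (0.0528%, against 0.117%) and small RNA genes to 56 (2.96%, against 3.07%). Of ordinary-named peaks, 0.789%, 0.445%, 0.133% and 2.66% were named for these lists, in that order. Neuronal and synaptic genes were nearest to 8 (0.423%, against 0.211%), chromatin and general transcription genes to 7 (0.370%, against 0.295%), factors of glutamatergic neurons to 9 (0.475%, against 0.145%) and Zfp zinc finger genes to 50 (2.64%, against 1.75%). For these lists the shares of ordinary-named peaks were 0.234%, 0.284%, 0.306% and 1.86%, in the same order. Of the Zfp pairs the highest was E530011L22Rik, with 1106.81 at 1.17 kb from a peak of 183.66 named Zfp651. The only ribosomal pair within 10 kb was 5830454E08Rik (189.22), 4.84 kb from a peak of Rpl14 (307.12).

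Small RNA genes lay within 10 kb of 4 members (0.211%) and 98 other peaks (0.545%). A pair of names linked to microRNAs was picked after the values had been seen. 2610100L16Rik, listed in RefSeq as Mir124-2hg, the host of a neuronal microRNA, had 5 peaks on chromosome 3, of 1266.57, 408.21, 309.57, 204.66 and 112.08. The highest, from 17633466 to 17635634, lay 173 kb from the nearest ordinary name. C130071C03Rik had peaks of 547.01 and 109.21 on chromosome 13, at 13.1 and 23.1 kb from a peak of 234.94 named Mir9-2, a microRNA of neural progenitors. The mature sequence of its 5′ arm is shown with its seed, bases 2 to 8, in capitals, as the product encoded beside these peaks.
mmu-miR-9-5p: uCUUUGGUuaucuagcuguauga

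Of the 1160 names, 180 matched RefSeq only as an older synonym of a gene that has since been given an ordinary symbol, and these named 263 peaks. They comprised 156 coding genes and 19 lncRNAs among others. The 19 lncRNAs include 1810026B05Rik, now Chaserr, with peaks of 571.31 and 250.02 at 19.5 and 79.7 kb from the peak of 181.61 named Chd2, the chromatin remodeller beside which Chaserr is transcribed. 5730457N03Rik, now Evx1os, had a peak of 319.04 at 2.04 kb from one of Evx1 (200.21), and A730090H04Rik, now Dlx4os, had one of 93.81 at 2.24 kb from one of Dlx4 (120.63). In the first 2 cases the lncRNA name held the higher score and in the last the lower. Among renamed coding genes, E130012A19Rik, now Epop, a partner of the Polycomb complex, had a peak of 1447.62 on chromosome 11 from 97489369 to 97491436, 29.6 kb from a peak of Mllt6 (210.10). Gm14920, now the histone variant gene H2ab1, had one of 1706.32, and 9130204L05Rik, now S100a7l2, one of 2193.32.

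Most of the highest scores among the members belonged to an array of 5S ribosomal RNA genes, which are repeated copies of a short RNA of the large ribosomal subunit. On chromosome 8, 10 peaks named Gm25018, Gm22291 and Gm25212 followed each other from 126060913 to 126128259. The 7 peaks of Gm25018 scored 3100 in 3 cases, and otherwise 2560.75, 2390.37, 1105.32 and 469.13. Those of Gm22291 scored 2569.61 and 987.37, and that of Gm25212 scored 788.31. All 10 lay above the median of the list, and their widths reached 15998 bp. The next ordinary name on one side was Rhou, with a peak of 1516.84 and 19843 bp that began 291 bp past the last of them, and on the other Dbndd1 with 258.26. The copies are nearly identical, and how reads were shared among them is unknown, so these scores are uncertain.

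Outside this array, the highest single score, 3100, was that of a peak of the lncRNA G530011O06Rik on chromosome X, with no ordinary name beyond it on one side. The 4 peaks of this name scored 3100, 598.36, 271.87 and 102.30, and that of 271.87 was 22030 bp wide, the widest of all members. Those of 271.87, 3100 and 598.36 lay close together, between 166407851 and 166447100. Whether the sequence there is repeated was not tested, so these scores are uncertain as well. The nearest ordinary name, Hccs, was 558 to 750 kb away. The coding name 4930467E23Rik (2214.28, chromosome 8 from 19783454 to 19785408) stood 248 kb from a peak of the defensin gene Defb7. The lncRNA 4933406J10Rik (1880.82, chromosome 7 from 89919224 to 89920644) stood 93.5 kb from a peak of 639.53 named Mex3b, an RNA-binding protein. Scores of exactly 3100 were held by 9 peaks of the list, of which 4 were members, and 1 peak scored higher. The formula of the score is unknown, so what this tie means cannot be told.

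Most names had a single peak, namely 785 of 1160, as did 8789 of the 12190 other names. Among member names, 48 with 5 or more held 292 peaks, and such names were not counted among other peaks. The most peaks of a member name were 13, for the coding name 5730507C01Rik. They were spread over 1355 kb of chromosome 12 with scores of 80.53 to 757.36. The lncRNAs 1700030C10Rik and 2410018L13Rik, also on chromosome 12, had 10 each over 725 and 1576 kb, with highest scores of 1182.02 and 845.21. 2610316D01Rik followed with 9 peaks over 1182 kb of chromosome 3. Then came 1700019B21Rik, 4930578C19Rik, 4932411N23Rik and Gm20268 with 8 each, and 4930459L07Rik, Gm10745 and Gm25018 with 7. Only Gm25018 held its peaks close together, within 67.3 kb, while each of the other 10 names spanned 481 kb or more.

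For 15 members (0.792%, 0.444 to 1.30%) the next ordinary name was the same on both sides. This share was not computed for other peaks, so it cannot be called low or high. Of the 15 members, 9 lay on chromosome 14 between peaks named LOC100861615, itself a numbered name. These 9 had names such as Gm3636 and Gm3696. The others stood between peaks of Slc35b3, Sybu, Cacnb2, Sema6d and Dlgap4, the last of which encodes a postsynaptic scaffold protein. Within 50 kb on both sides there was 1, 2310069G16Rik (125.05), between peaks of Sybu, a protein of axonal transport, at 38.3 and 7.30 kb.

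Chromosome X had the highest share of Rik and Gm names. They made up 187 of its 789 peaks (23.7%, 20.8 to 26.8%), against 15.4% on chromosome 14 and 14.4% on chromosome 12, the next highest, and 5.33% on chromosome 19, the lowest of the autosomes. Chromosome Y had 2 peaks, 0 of them members. On X, 132 of the 187 named coding genes and 34 lncRNAs. Scores on X were low for both kinds of name, with medians of 165 for members and 180 for other peaks, and gaps were wide, with 456 and 207 kb. None of the 187 lay within 10 kb of an ordinary name (0, exact upper bound 1.95%), against 4 of the 602 other peaks there (0.664%). The 5 members farthest from an ordinary name were all on X, between Wdr44 and Dock11: Gm10488 (118.21), Gm10096 (109.03), Gm4836 (187.34), Gm10058 (124.42) and Gm10486 (129.80), at 4401 to 5104 kb. Without X the medians were 128 kb for members and 55.5 kb for other peaks.

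**Figure D4:**
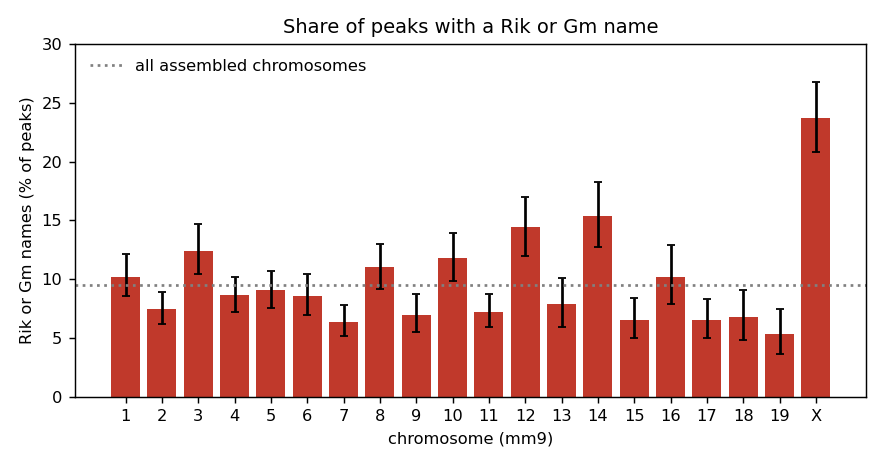
Rik and Gm names as a share of the peaks on each chromosome (bars, %), with exact 95% intervals; the dotted line is the share over all assembled chromosomes, 9.52%. Chromosome X stands at 23.7%, above chromosome 14 at 15.4%.

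Among coding genes that still have a Rik symbol, GC boxes were more frequent in promoters of genes with a peak than without. Genes since given an ordinary symbol are not counted in the Rik and Gm groups here. A gene without a peak may have been absent from the authors' annotation, so it cannot be called unbound. Each promoter is the first listed window of 300 bases, searched on both strands for GGGCGG. The box was present in 75 of 147 coding Rik genes with a peak (51.0%, 42.7 to 59.3%) and in 41 of 212 without (19.3%, 14.3 to 25.3%). Over all 27025 promoters the share was 35.9%. The number of CpG moved with them, with medians of 18 and 4 in coding Rik genes, and its part in the result was not tested. For coding Gm genes the shares were 18.3% (11.7 to 26.5%) and 11.0% (9.13 to 13.1%), with intervals that overlap. Among Rik lncRNAs with a peak 116 of 358 promoters (32.4%, 27.6 to 37.5%) held a box. Only 79.8% of the Rik lncRNAs without a peak had an entry in the promoter table, under the 80% required, so that comparison is void. Gm lncRNAs and coding genes with ordinary names were also under the 80% required. For the latter, entries existed for 79.3% of genes with a peak and 79.8% of those without, just short of it. A box was present in 65.0% (64.0 to 65.9%) and 26.7% (25.7 to 27.8%) of their promoters, a difference in the same direction. The difference is therefore not shown to be particular to Rik names. The motif CACCC, the core of the GT box that Sp factors also bind, was present in 63.3% of coding Rik promoters with a peak and 56.1% without, against 56.7% of all promoters. A match describes these letters in the window and does not place a peak there.

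**Figure D5:**
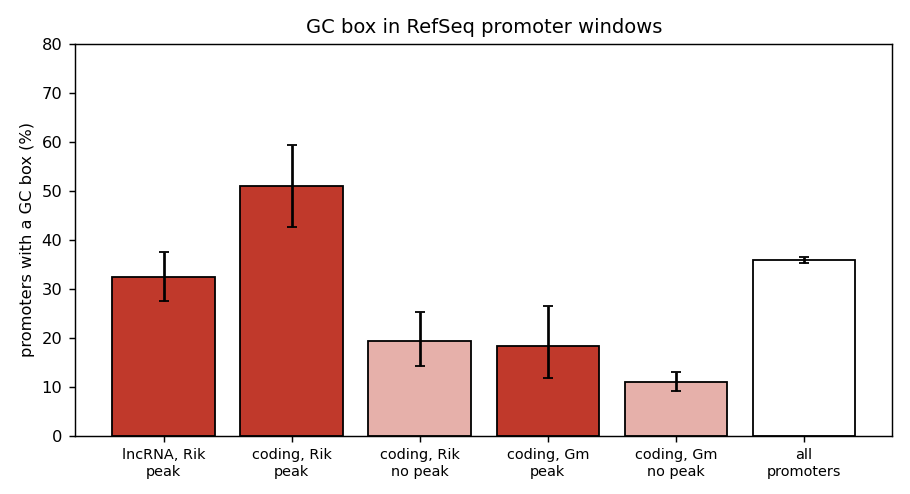
Share of RefSeq promoter windows of 300 bases (vertical axis, %) that hold GGGCGG on either strand, by gene class, kind of name and presence of a peak, for groups with enough entries, with exact 95% intervals. Coding genes that still have a Rik symbol stood at 51.0% with a peak and 19.3% without, and Rik lncRNAs with a peak at 32.4%.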

How the data were processed

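The analysis used 1 list of peaks that the authors deposited as shared between 2 Sp9 immunoprecipitations of bulb chromatin. Bowtie2 2.2.4, MACS 1.4.2 and build mm9 are named, per the submitters' processing notes, without roles or settings. Per the file headers, each line gives a position, the authors' deposited peak score and a gene name. The score's formula, the meaning of shared, the way names were assigned, and whether starts count from 0 were not found in those notes or headers. The deposited positions are neither counts nor a signal. No library has a value of its own, so depth is unknown and no replicate could be compared.

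Names were matched to RefSeq (GRCm38.p6) by symbol, then by a synonym held by 1 gene: 976 by symbol, 180 by synonym, 4 not at all. Of 1889 matched peaks, 1878 lay on the gene's chromosome. Gaps run edge to edge on 1 chromosome. Dense runs are 5 or more peaks with gaps up to 10 kb. Promoter entries existed for 867 of 1156 matched genes, so shares are given only by class. The neighbour search was tested on simulated peaks. Python 3.11.15, pandas 2.3.3 and scipy 1.17.1 were used.

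The members and gene lists were chosen with earlier results of these data known. Genes named are the highest 10 by score, the 10 names with most peaks with ties, the 5 widest, the 5 farthest, up to 4 per list within 10 kb, peaks flanked by 1 gene within 50 kb, and promoters of 4 non-coding members outside chromosome 18. Others, including the 5 closest, the peaks beyond 10 kb of a listed gene and the renamed genes, were chosen after their values were seen. Some neighbouring genes and 1 marker are not reported here by name.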

Additional observations from a re-analysis of the deposited data

Results flagged for a closer look

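Outside the assembled chromosomes, 46 rows had Rik or Gm names, of 99 rows there, and entered none of the comparisons above; no input value is at hand to set them against. Gm16513 held 21 of them on unplaced sequence, with scores of 91.08 to 500.37 and a median of 178.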

How the results depend on the processing

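No result had a test, so each was followed as a value against the interval of the main value. The settings without chromosome X, lncRNA names only and protein-coding names only were added after the data were seen. With only rows at or above the list median score, the median score was 347, the median gap 202 kb and the share within 10 kb 4.67%; both members and neighbours are fewer there by construction. With Rik names only, the gap was 126 kb, the share flanked by 1 gene 0.406% and the non-coding share 62.3% (main 54.7%). With Gm names only, the median score was 172, the share at or above the list median 41.1%, the gap 206 kb, the share within 10 kb 5.59%, the flanked share 1.51% and the non-coding share 40.5%. With one row per name, its highest, the score was 238 and the share at or above the median 56.5% by construction, the gap 107 kb, the flanked share 0% and the non-coding share 52.2%. Without ribosomal RNA names and dense runs, the share within 10 kb was 5.17%. Without chromosome X, the gap was 128 kb and the non-coding share 58.7%. The gap was 176 kb for lncRNA names and 116 kb for protein-coding names. Where construction does not show it, the cause was not tested. Members had a wider gap than other peaks also among rows at or above the list median (148 against 60.3 kb, with all rows as neighbours), without X (128 against 55.5 kb) and outside dense runs (164 against 62.1 kb). Leaving out a library and another overlap were not run, because no library's own peaks were at hand. No paired analysis was possible because 1 value stands for both immunoprecipitations. The unknown depth limits each statement that a gene had no peak.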
